A study of Saccharomyces cerevisiae with 12 samples.

Results

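The genes described here encode nucleolar ribosome biogenesis factors of budding yeast (Saccharomyces cerevisiae). They were taken as the rows of the count table whose standard name is NOP, UTP, RRP, NOC or RPF followed only by a number, a rule that uses no measured value. Standard names came from RefSeq by locus tag, which matched 6047 of the 7127 features in the table. The rule found 58 genes, and all 58 passed the filter on low counts, beside 6085 features tested in all. All 4 groups have 3 biological replicates of strain BY4741, a laboratory derivative of S288C, harvested in mid-log growth. They are the mutant Rpd3-2SA in sucrose, WT in sucrose, Rpd3-2SA in YPD (a rich glucose medium) and WT in YPD. The title of the series concerns phosphorylation of Rpd3, a histone deacetylase, but what 2SA stands for, how that strain was made and how many clones were used go unstated in the labels. Total RNA was sequenced, so each value is an average over a culture, and fewer cells with a transcript cannot be told apart from less of it per cell.

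Library totals were 20775911 to 25360037 counts. RPD3 had 88.2 to 150 CPM (counts scaled to a common library size, here by library total alone) over the 12 libraries, and its count does not show which libraries carry the mutation. URA3, which BY4741 lacks, had 252 to 491 CPM in every library, while LEU2 and MET17, which it also lacks, had 1 and 0 counts in all libraries together. The library numbered 2 of each sucrose group stood apart: genes of cytosolic ribosomal proteins took 5.85% of its counts in 2SA and 4.09% in WT, against 9.68% to 13.4% in the other sucrose libraries. A list of 16 stress genes took 1.46% and 2.65% there, against 0.348% to 0.755% in the other sucrose libraries. In comparisons with sucrose libraries, medians over the 58 genes, their roles and other gene lists are therefore given with and without libraries numbered 2. So are the counts of genes at an unadjusted p under 0.05. Fits without number 2 have 2 libraries a group, so their counts are not on the same footing as those with all libraries. The glucose libraries numbered 1 also had a high stress share and stay in the fits without number 2. It was 1.03% in 2SA and 1.02% in WT, against 0.371% to 0.420% in the other glucose libraries. Their ribosomal protein share was 16.7% and 17.5%, against 14.2% to 16.6%.

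Ribosomes are assembled around a long precursor of ribosomal RNA that RNA polymerase I makes in the nucleolus. While it is still being made, the small subunit processome forms on its first part, with UtpA binding first, UtpB next to it and UtpC later. Box C/D and H/ACA snoRNPs, small RNA and protein particles, guide cleavage of the precursor and modify its nucleotides. Other factors carry the large subunit forward, and the nuclear exosome trims the remaining spacers. In yeast these genes are known to be transcribed together according to growth. Many share the PAC and RRPE promoter motifs, bound by the repressors Dot6 and Tod6 (PAC) and Stb3 (RRPE), which recruit the Rpd3L deacetylase complex. By role the 58 comprised 6 UtpA genes, 4 UtpB genes, 2 UtpC genes, 17 other genes of the small subunit processome, 4 of the snoRNP core, 18 of large subunit assembly and 7 of the exosome.

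No nucleolar factor was called in any of the 5 comparisons, that is, none had an edgeR adjusted p under 0.05 with a fold change over 1.5. Most genes outside the exosome had a large spread between replicates of 1 group. It moved them together in a library, in 2SA and in WT. In sucrose, 57 of 58 had a log2 fold change above 0 in 2SA against WT, with a median of 0.18. That was below the standard error of most genes in this fit, which does not pair same-numbered libraries. Against glucose, sucrose libraries had a median of −0.13 in 2SA and −0.29 in WT, and both medians were above 0 without the libraries numbered 2.

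Levels differed widely between the genes. Levels per kilobase of gene adjust for length alone. The highest such mean over the 12 libraries was that of NOP16, a large subunit assembly factor, at 1481 CPM per kilobase. It was followed by NOP15, another large subunit factor, at 920.2 and by NOP10, the smallest H/ACA snoRNP protein, at 829 CPM per kilobase. The lowest means were those of UTP10 (17.7 CPM per kilobase), UTP6 (20.1) and UTP8 (27.0), whose proteins belong to UtpA (Utp10 and Utp8) and UtpB (Utp6). Proteins of 1 complex thus did not have transcripts at 1 level per kilobase. In WT glucose, UTP4 had 144 ± 55.2 CPM per kilobase and UTP10 18.2 ± 4.38 (SD, n = 3 each), and both genes belong to UtpA.

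NOP16 lay far above UTP10 in each of the 4 groups. NOP16 had 1344 ± 375 CPM per kilobase in 2SA sucrose, 1276 ± 389 in WT sucrose, 1592 ± 302 in 2SA glucose and 1712 ± 659.6 in WT glucose. UTP10 had 18.0 ± 4.90, 15.9 ± 5.69, 18.8 ± 3.12 and 18.2 ± 4.38 CPM per kilobase in the same order of groups. The plot of levels gives the means and SDs of all 58 genes.

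**Figure D1:**
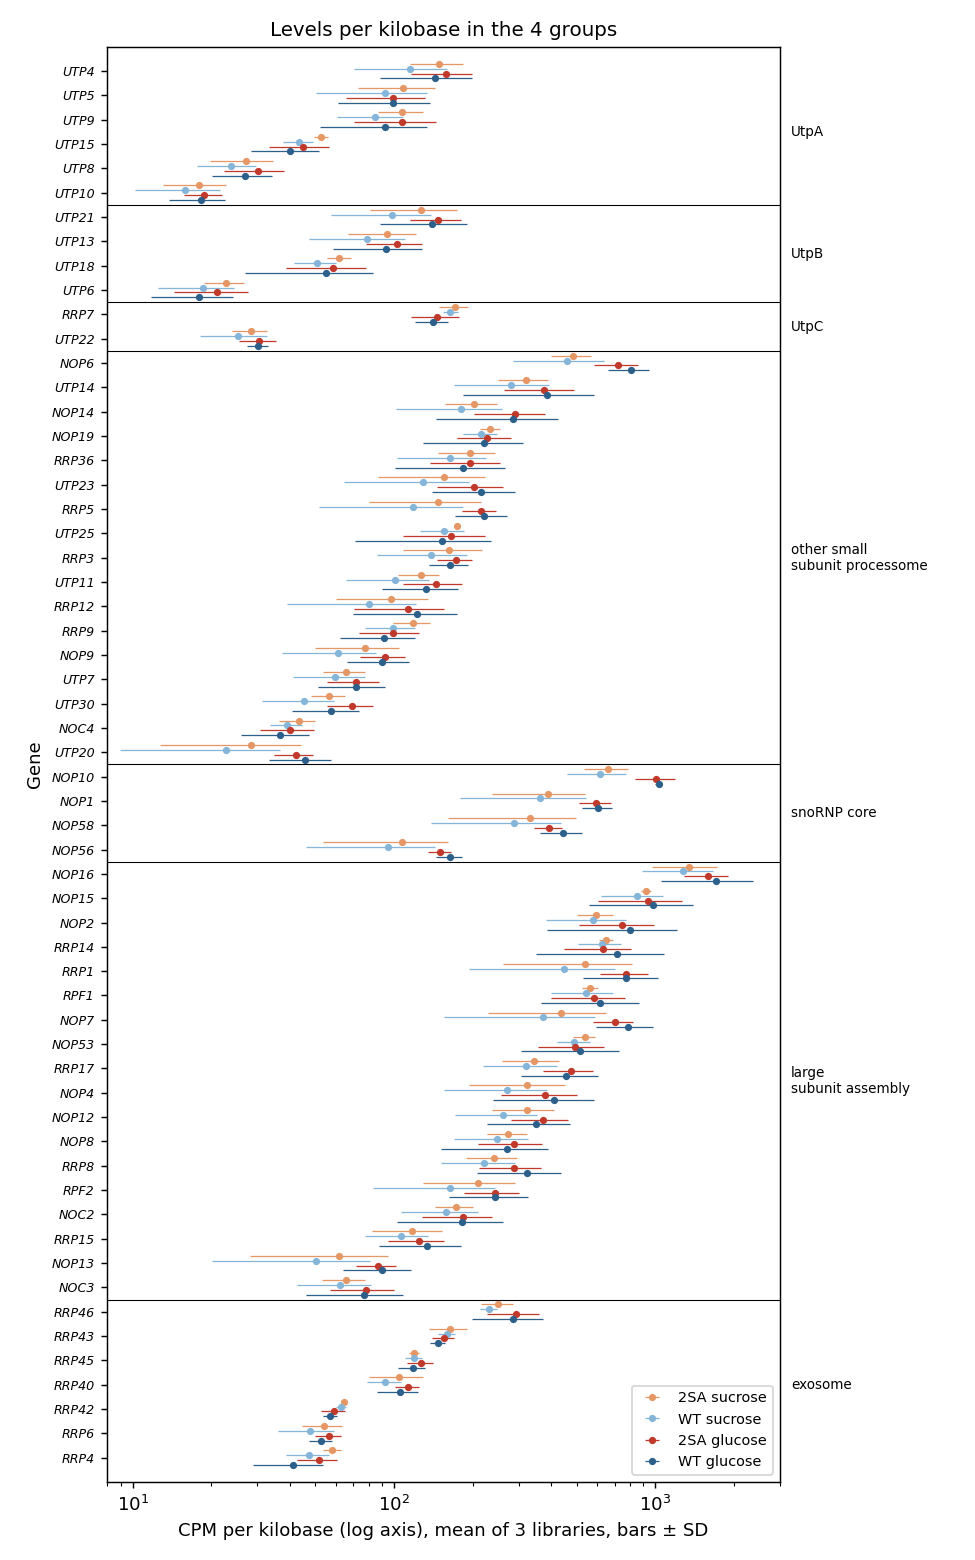
Level per kilobase of each of the 58 genes on a log axis, by role, as the mean of 3 libraries with bars of ± SD, in 2SA sucrose, WT sucrose, 2SA glucose and WT glucose. NOP16 has the highest and UTP10 the lowest mean over all libraries, and the bars of RRP42 are among the shortest.

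The spread between replicates was wide for most of these genes. The SD of log2 CPM within groups, pooled over the 4 groups, had a median of 0.440 over the 58 genes, against 0.284 over all features tested. It ran from 0.0955 for RRP42, an exosome ring subunit, at percentile 3 of all features, to 0.707 for UTP20, a very large scaffold protein of the small subunit processome, at percentile 94. The 7 exosome genes had a median of 0.248, and the other 51 had a median of 0.460. Cytosolic ribosomal protein genes, listed for comparison, had a median of 0.581.

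This spread was shared by most of the genes, library by library. In sucrose, replicate 2 was the lowest of its group for 50 genes in 2SA and for 50 in WT, and replicate 3 the highest for 44 in 2SA and 53 in WT. In glucose, replicate 2 was the highest for 57 genes in 2SA and 49 in WT, and replicate 1 the lowest for 47 in 2SA and 56 in WT. Replicate 2 was thus at opposite ends in the 2 carbon sources. The libraries of 1 number moved 2SA and WT the same way within a carbon source, and what the numbers stand for is not stated in the labels.

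Summed over the 58 genes, 2SA sucrose libraries held 17311, 13623 and 21768 CPM, against 15226, 10467 and 20990 CPM in WT sucrose. In glucose the sums were 16526, 25755 and 19852 CPM in 2SA, against 14434, 28547 and 20853 CPM in WT. The highest sum was 1.60 times the lowest in 2SA sucrose, 2.01 times in WT sucrose, 1.56 times in 2SA glucose and 1.98 times in WT glucose. These gaps between replicates exceed every difference between group means of the sum, which were 17568 ± 4079 CPM in 2SA sucrose, 15561 ± 5269 in WT sucrose, 20711 ± 4674 in 2SA glucose and 21278 ± 7066 in WT glucose (SD, n = 3).

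**Figure D2:**
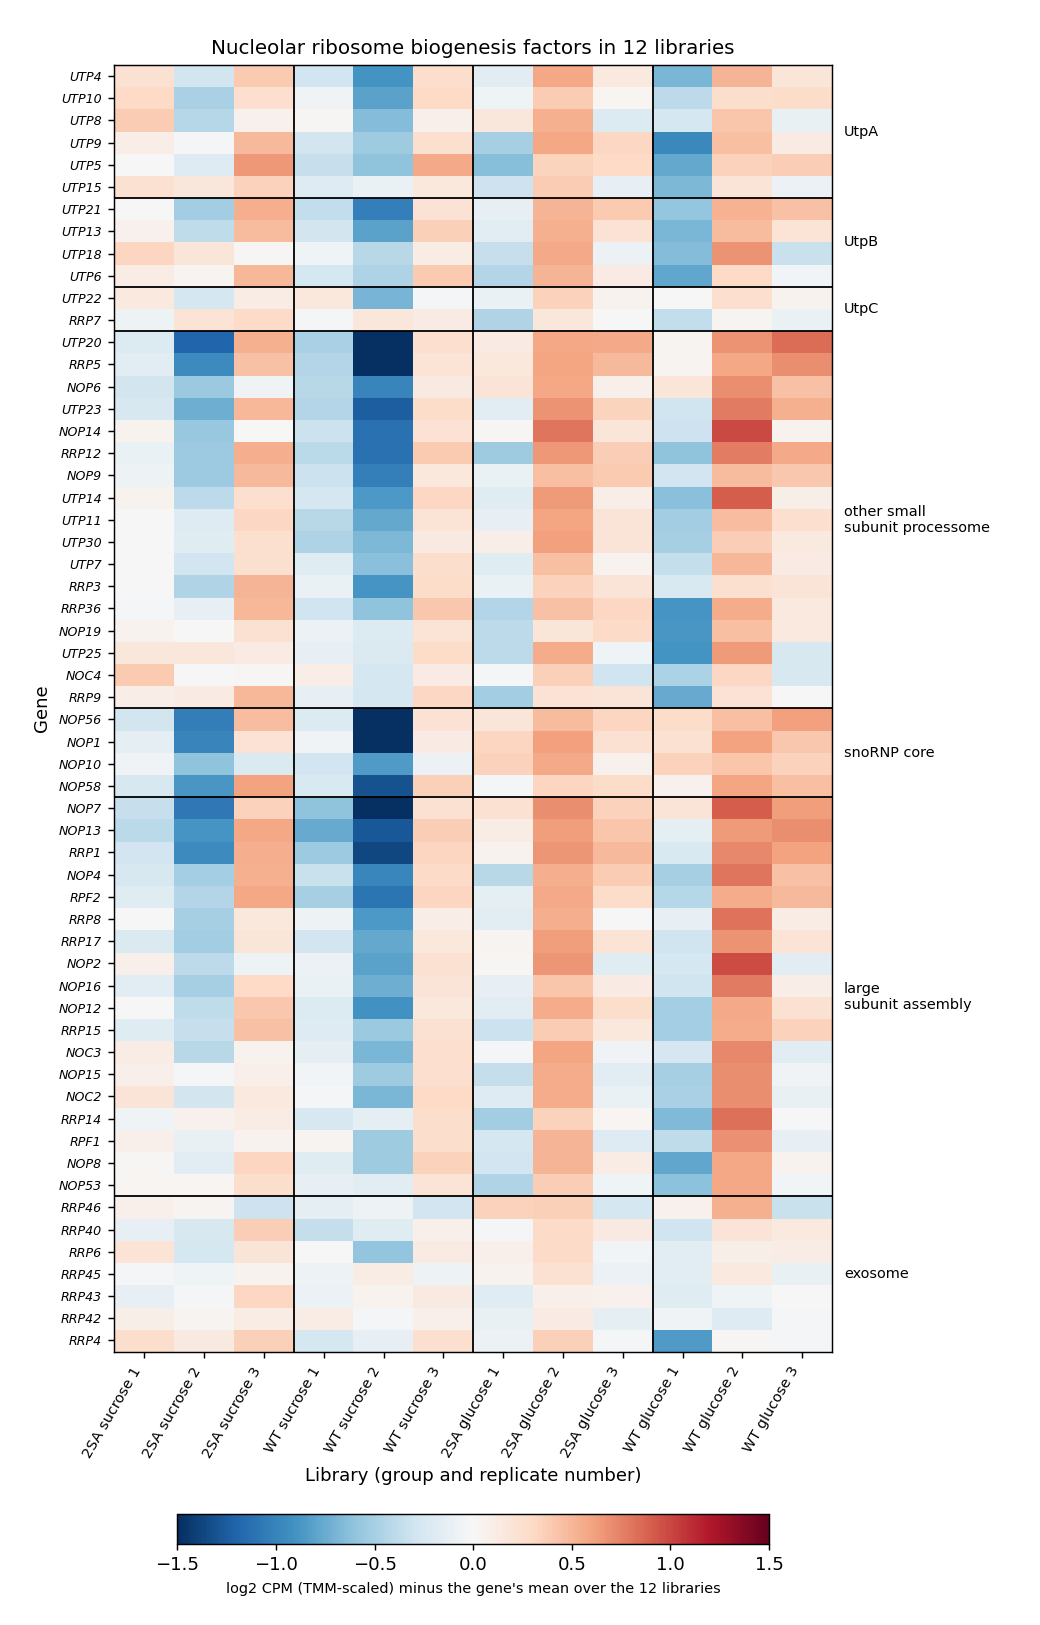
log2 CPM of each gene minus its own mean over the 12 libraries, with genes in rows by role and libraries in columns by group and replicate number. In sucrose the libraries numbered 2 are low for most genes outside the exosome, and in glucose the libraries numbered 2 are high, in 2SA and in WT.

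UTP20 shows the pattern at its widest. It had 200.2, 102 and 336 CPM in the 2SA sucrose libraries numbered 1 to 3, against 165, 69.7 and 277 CPM in WT sucrose. In glucose it had 253, 347 and 344 CPM in 2SA, against 239, 369 and 414 CPM in WT. Within sucrose, number 2 was the lowest and number 3 the highest in both genotypes, and the values of 2SA and WT interleave.

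RRP42 shows the reverse case. It had 51.6, 49.8 and 52.4 CPM in 2SA sucrose, against 52.0, 47.5 and 50.9 CPM in WT sucrose, and 44.7, 52.6 and 43.7 CPM in 2SA glucose, against 46.6, 42.2 and 47.9 CPM in WT glucose. All 12 values lie within a narrow range, including those of the libraries numbered 2. The catalytic exosome subunit gene RRP6 varied more, with 132, 95.1 and 131 CPM in 2SA sucrose, 114, 75.8 and 125 in WT sucrose, 121, 139.5 and 112 in 2SA glucose and 103, 122 and 124 in WT glucose. Its lowest values were those of the sucrose libraries numbered 2.

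The promoters were searched for the motif cores that these genes are known for. The PAC core was searched as GATGAG, on both strands (its other strand reads CTCATC), and the RRPE core as AAAATTTT, which reads the same on both strands. These letters cannot overlap each other. In the 300 bases before the reading frame, 48 of 58 genes (82.8%) held a PAC core, against 19.1% of 5988 coding genes with a full window. An RRPE core was found in 36 (62.1%), against 9.42%, and both in 31 (53.4%), against 4.46% of all coding genes. The longer form GCGATGAG was found in 25 genes (43.1%, against 4.06%) and GAAAATTTT in 28 (48.3%, against 4.94%). A match describes letters and not binding, and no match says only that these letters are not in the window.

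The sequences below are shown because they hold the clearest cases of both cores, of a PAC core alone and of neither core. They are on the strand of the gene, in the sacCer3 build (RefSeq R64), with PAC and RRPE cores in capitals.
NOP7, chrVII:695266-695330, plus strand: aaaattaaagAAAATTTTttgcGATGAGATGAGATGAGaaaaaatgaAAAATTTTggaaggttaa
UTP20, chrII:227417-227479, plus strand: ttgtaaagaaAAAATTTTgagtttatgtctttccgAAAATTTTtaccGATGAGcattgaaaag
RRP5, chrXIII:731259-731309, minus strand: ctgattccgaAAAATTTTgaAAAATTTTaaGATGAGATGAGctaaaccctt
NOP56, chrXII:545915-546004, plus strand: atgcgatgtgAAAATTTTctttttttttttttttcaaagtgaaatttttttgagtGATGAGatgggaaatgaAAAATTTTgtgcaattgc
NOP1, chrIV:427129-427175, plus strand: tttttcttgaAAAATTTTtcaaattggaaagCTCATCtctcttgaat
NOP10, chrVIII:241541-241566, plus strand: tcaagttatgCTCATCactcttttat
RRP42, chrIV:264211-264310, minus strand: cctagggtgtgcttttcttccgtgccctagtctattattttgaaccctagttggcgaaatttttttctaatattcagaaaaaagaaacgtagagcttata
RRP45, chrIV:1020547-1020646, plus strand: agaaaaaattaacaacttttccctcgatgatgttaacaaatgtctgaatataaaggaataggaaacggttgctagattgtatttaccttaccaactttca
UTP22, chrVII:662158-662257, plus strand: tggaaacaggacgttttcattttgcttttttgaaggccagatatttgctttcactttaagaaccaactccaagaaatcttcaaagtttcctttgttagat
The NOP7 stretch lies 151 to 87 bases before the start codon and holds 3 overlapping PAC cores between 2 RRPE cores. NOP1 and NOP10 carry the PAC core on the other strand. The stretches of RRP42, RRP45 and UTP22 are bases 200 to 101 before the start codon and hold neither core, as does the whole 300-base window of these genes and of RRP46 and UTP30.

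Core motifs were unevenly spread over the roles. A PAC core was found in 4 of 6 UtpA, 4 of 4 UtpB, 0 of 2 UtpC, 16 of 17 other processome, 4 of 4 snoRNP core, 17 of 18 large subunit and 3 of 7 exosome genes. No exosome gene held both cores. The 72 PAC matches had a median position 119 bases before the start codon and the 44 RRPE matches 133 bases before it.

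The spread between replicates differed with the motifs, as a description of these genes. Its median was 0.503 on the log2 scale for the 31 genes with both cores, 0.418 for the 17 with PAC alone, 0.303 for the 5 with RRPE alone and 0.285 for the 5 with neither. Exosome genes made up 3 of the 5 genes with neither core. Without the exosome genes the medians were 0.503 (31 genes), 0.426 (14), 0.343 (4) and 0.320 (2), in the same order, and the classes overlapped widely.

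**Figure D3:**
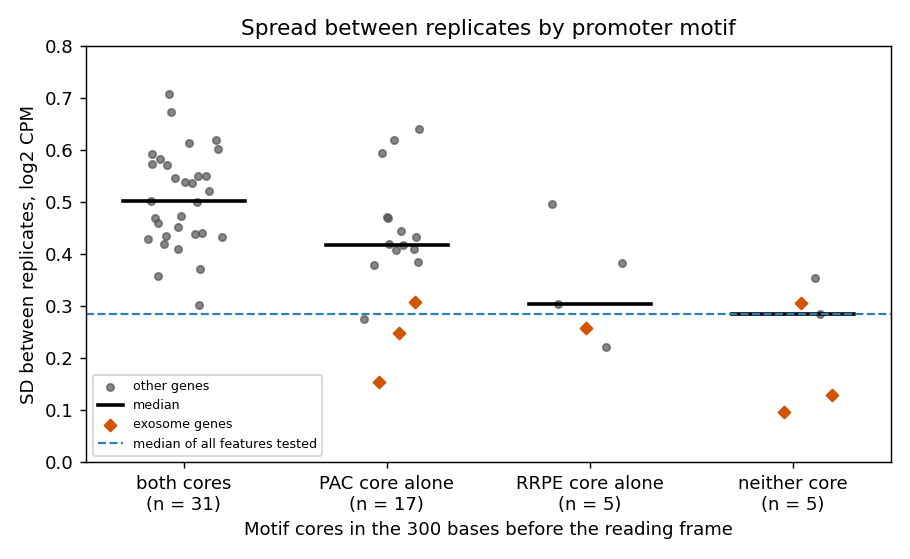
SD of log2 CPM between replicates (pooled over the 4 groups) for each gene, by the motif cores in the 300 bases before its reading frame, with the median of each class and the median of all features tested (dashed). The median is 0.503 for both cores and 0.285 for neither, and diamonds mark the exosome genes.

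Sucrose against glucose in 2SA gave mostly values below 0, none of them called. Of all features tested, 1.89% were called by edgeR and of the 58 factors 0, with 1 at an unadjusted p under 0.05 (18.1% of all features), and 0 without the libraries numbered 2 (11.2%). DESeq2 called 5.71% of all features and edgeR with the additive block 5.70%, and 0 of the 58 in both. The median was −0.13, with a range of −0.68 to 0.25, against 0.02 over all features. The 5 lowest were NOP7, whose protein, the counterpart of human pescadillo, acts in large subunit maturation (−0.68 ± 0.44), NOP10 (−0.62 ± 0.21), NOP1, the fibrillarin methyltransferase (−0.61 ± 0.40), NOP6 (−0.58 ± 0.28) and UTP20 (−0.57 ± 0.49). The 5 highest were RRP9 of the U3 snoRNP (0.25 ± 0.28), UTP15 (0.23 ± 0.23), RRP7 (0.22 ± 0.18), RRP4 (0.16 ± 0.23) and UTP5 (0.14 ± 0.40). None passed the edgeR test, with adjusted p of 0.16 or more.

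NOP10 had 136, 92.6 and 121 CPM in 2SA sucrose, against 179, 209.5 and 147 CPM in 2SA glucose. NOP7 had 742, 447 and 1197 CPM in 2SA sucrose, against 1105, 1526 and 1197 CPM in 2SA glucose, and NOP1 had 405, 223 and 518 CPM in 2SA sucrose, against 554, 679.9 and 521 CPM in 2SA glucose. For NOP7 the groups overlap, since library 3 of sucrose lies within the range of glucose. Groups separated downward for NOP1, NOP6 and NOP10, against 13.0% of all features, and upward for none, against 14.2%.

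In WT, sucrose against glucose had the widest range of values over the 58 genes among the 5 comparisons. Of all features tested, 3.43% were called by edgeR, and of the 58 nucleolar factors 0. At an unadjusted p under 0.05 there were 3 of 58, against 24.0% of all features, and without the libraries numbered 2 also 3, against 14.4%. Of the 58, 48 had a log2 fold change below 0, with a median of −0.29 and a range of −1.08 to 0.23, against a median of 0.04 over all features. By role the medians were −0.75 for the snoRNP core, −0.42 for large subunit assembly, −0.39 for other processome genes, −0.18 for UtpB, −0.16 for UtpA, −0.01 for UtpC and 0.02 for the exosome. The role medians without the libraries numbered 2 were −0.36 for the snoRNP core, 0.11 for large subunit assembly, 0.09 for other processome genes, 0.35 for UtpB, 0.25 for UtpA, 0.16 for UtpC and 0.08 for the exosome, so that the snoRNP core alone was still below 0. Standard errors ran from 0.11 to 0.49 with a median of 0.33. The 138 ribosomal protein genes had a median of −1.03, and of −0.75 without the libraries numbered 2.

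The lowest value belonged again to NOP7 (YGR103W, chromosome VII, 695417 to 697234, plus strand). It had 619, 315 and 1098 CPM in WT sucrose, against 1075, 1767 and 1445 CPM in WT glucose. WT sucrose was lower in libraries 1 and 2, but library 3 lay inside the range of glucose, so the groups overlap. The log2 fold change was −1.08 ± 0.45 (edgeR adjusted p = 0.176). It was −0.55 without the libraries numbered 2.

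UTP20 had a log2 fold change of −0.998 ± 0.49 in WT (edgeR adjusted p = 0.239), and its values per library are those given above. RRP5 (YMR229C, chromosome XIII, 725934 to 731123, minus strand), which acts in the making of both subunits, had 613, 268 and 956 CPM in WT sucrose, against 851, 1242 and 1345 CPM in WT glucose, at −0.90 ± 0.44 (edgeR adjusted p = 0.237). For both genes library 3 of WT sucrose lay within the range of WT glucose. NOP13, an RNA-binding nucleolar protein, had −0.84 ± 0.45 (edgeR adjusted p = 0.276); its gene overlaps YNL174W on the other strand, and whether the counting used strand is unstated.

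In 4 genes every WT sucrose library was below every WT glucose library: NOP1, NOP6, NOP10 and NOP56. Such separation downward was found in 12.1% of all features, and upward in 14.2%, which holds none of the 58. NOP10 (YHR072W-A, chromosome VIII, 241664 to 241840, plus strand) had 116, 78.4 and 133 CPM in WT sucrose, against 179, 188 and 179 CPM in WT glucose. The glucose libraries were close together and all sucrose libraries lay below them. Its log2 fold change was −0.74 ± 0.21 with the lowest adjusted p of the 58, 0.077 by edgeR, and 0.018 to 0.21 over the other fits.

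NOP6, which encodes an RNA-binding protein that assists small subunit formation, had 299, 201 and 438 CPM in WT sucrose, against 452, 646 and 539 CPM in WT glucose (−0.80 ± 0.28, edgeR adjusted p = 0.118). DESeq2 called 8.87% of all features and 2 of the 58, NOP10 (−0.77, DESeq2 adjusted p = 0.018) and NOP6 (−0.83, adjusted p = 0.046, with 0.037 to 0.46 over all fits). With the replicate number as an additive block edgeR called 10.5% of all features and 1 of the 58, NOP10 (−0.76, edgeR adjusted p = 0.047). That block takes each number to act alike in sucrose and glucose, which does not hold for number 2. Both NOP10 and NOP6 were also called by edgeR without WT sucrose replicate 3 (NOP10 adjusted p = 0.042, NOP6 adjusted p = 0.037). Without the libraries numbered 2, edgeR called 0 features, and the values were −0.53 for NOP10 and −0.43 for NOP6.

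The genes of the box C/D proteins had values below 0 like that of NOP10. NOP1 had 428, 152 and 485 CPM in WT sucrose, against 519.8, 678 and 587 CPM in WT glucose (−0.75 ± 0.40, edgeR adjusted p = 0.275). NOP56 had 157, 64.3 and 210.0 CPM in WT sucrose, against 219, 248 and 277 CPM in WT glucose (−0.79 ± 0.41, edgeR adjusted p = 0.267). The groups barely separate, and library 2 of WT sucrose stands far below libraries 1 and 3. NOP58, the partner of Nop56, had −0.62 ± 0.42 (edgeR adjusted p = 0.383). The NOP56 gene overlaps YLR198C on the other strand, and NOP58 overlaps YOR309C on the same strand.

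At the other end, 10 genes had values above 0, of which the 5 highest were RRP7 of UtpC (0.23 ± 0.18), the exosome genes RRP4 (0.20 ± 0.23), RRP42 (0.14 ± 0.11) and RRP43 (0.11 ± 0.15), and RRP9 (0.12 ± 0.28). RRP7 had 136, 155 and 150.3 CPM in WT sucrose, against 106, 142 and 129 CPM in WT glucose, and the groups overlap. The adjusted p by edgeR of RRP7 was 0.462. Its partner in UtpC, UTP22, had 116, 64.3 and 102 CPM in WT sucrose, against 104, 124 and 108 CPM in WT glucose (−0.25 ± 0.22, edgeR adjusted p = 0.493). UTP22 thus lay on the other side of 0, with overlapping groups.

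Without the libraries numbered 2 the sign of the medians turned. In 2SA the median of the 58 was 0.18, with 45 genes above 0, and in WT it was 0.11, with 39 above 0, against 0.01 and 0.00 over all features. The values of NOP7 were then −0.23 in 2SA and −0.55 in WT, and those of NOP10 −0.33 and −0.53. UTP20 had −0.14 in 2SA and −0.56 in WT. NOP7, NOP10 and UTP20, low with all libraries, thus also had values below 0 without the libraries numbered 2, unlike the median of the 58. They were chosen on a fit that holds the same 8 libraries, so these values are no separate support. The sucrose libraries numbered 2 also had a low ribosomal protein share and a high stress share. Whether these shares go with the log2 fold changes of the 58 was not tested. Leaving out number 2 also removed the glucose libraries numbered 2. Of the 58 genes, 57 in 2SA and 49 in WT were highest there among the glucose replicates. What part the sucrose and the glucose libraries numbered 2 each had in the result was not tested.

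**Figure D4:**
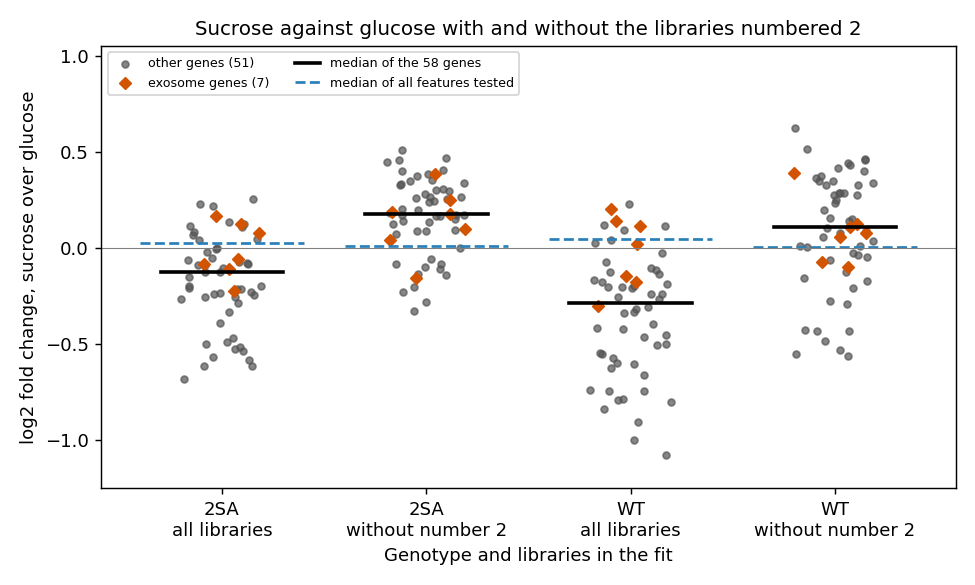
log2 fold change of sucrose over glucose for each gene, in 2SA and in WT, with all libraries and without the libraries numbered 2. The medians of the 58 genes (black) are −0.13 and −0.29 with all libraries and 0.18 and 0.11 without number 2, while the medians over all features (dashed) stay near 0.

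Between 2SA and WT in sucrose, edgeR called 0.0657% of all features and 0 of the 58 genes. None of the 58 had an unadjusted p under 0.05, against 3.98% of all features (0 and 2.81% without the libraries numbered 2), and DESeq2 called 0 of them and 0.757% of all features. The log2 fold changes of the 58 ran from −0.00 to 0.38, with a median of 0.18 and 57 above 0, against a median of −0.00 over all features. Medians by role were 0.29 for UtpB, 0.26 for UtpA, 0.25 for other processome genes, 0.14 for the snoRNP core, 0.13 for large subunit assembly, 0.12 for the exosome and 0.11 for UtpC. The role medians without the libraries numbered 2 were 0.22 for UtpB, 0.24 for UtpA, 0.19 for other processome genes, 0.09 for the snoRNP core, 0.07 for large subunit assembly, 0.12 for the exosome and 0.07 for UtpC, all still above 0. The median standard error was 0.33, so that 1 standard error is a fold change of 1.26.

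Same-numbered libraries of 2SA and WT deviated together, so the fit with a block for each pair is given beside these values. With the block the median over the 58 was 0.21, all 58 were above 0 and 0 were called, against 1.84% of all features. At an unadjusted p under 0.05 there were 23 of the 58 (39.7%), all higher in 2SA, against 21.2% of all features. Without the libraries numbered 2 the same block gave 5 of the 58 (8.62%), against 12.3% of all features, with a median of 0.14, so the share of the 58 was above that of all features with the pair numbered 2 and below it without that pair. Within pairs, 2SA was higher in all 3 pairs for 30 genes (51.7%), against 22.3% of all features, and lower in all 3 for 0, against 20.6%. In the pairs numbered 1 and 3 alone, 2SA was higher in both for 32 genes (55.2%, against 30.9% of all features) and lower in both for 0 (29.3%). The 30 genes comprised 4 of 6 UtpA, 3 of 4 UtpB, 11 of 17 other processome, 10 of 18 large subunit and 2 of 7 exosome genes, and none of UtpC or the snoRNP core. The stress genes took 0.506%, 1.46% and 0.348% of counts in the 2SA sucrose libraries, against 0.755%, 2.65% and 0.379% in WT sucrose, lower in 2SA in each pair, and their part in the result was not tested.

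The differences were not of 1 size in the pairs. The median of 2SA minus WT over the 58 genes was 0.234 in the pair numbered 1, 0.414 in the pair numbered 2 and 0.106 in the pair numbered 3, with 50, 55 and 40 genes above 0. The pair numbered 2 had the largest median. Without it the median of the unblocked fit was 0.14, with 53 above 0. Leaving out a single library moved the median between −0.01 (without WT sucrose replicate 2) and 0.43 (without WT sucrose replicate 3), which also breaks a pair, and it was 0.02 without 2SA sucrose replicate 3 and 0.34 without 2SA sucrose replicate 2.

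**Figure D5:**
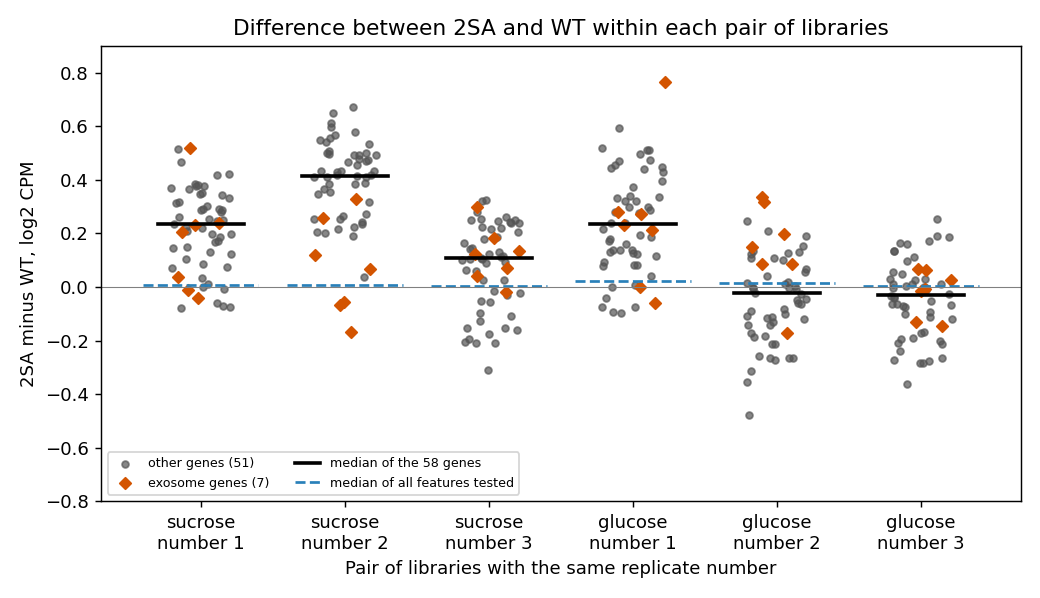
2SA minus WT in log2 CPM for each gene within the 6 pairs of same-numbered libraries, with the median of the 58 genes (black) and of all features tested (dashed). In sucrose the medians are 0.234, 0.414 and 0.106, and in glucose 0.236, −0.024 and −0.031.

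UTP21, a UtpB protein, had the highest value. It had 344, 238 and 497 CPM in 2SA sucrose, against 265, 168 and 397 CPM in WT sucrose. In each pair 2SA was higher, while the groups overlap because of the spread between numbers. Its log2 fold change was 0.38 ± 0.38 (edgeR adjusted p = 1.0), and 0.40 ± 0.11 with the block (edgeR adjusted p = 0.0911).

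UTP4 and UTP9 of UtpA showed the same layout. UTP4 had 370.1, 259.6 and 414 CPM in 2SA sucrose, against 259, 169.9 and 378 CPM in WT sucrose (0.37 ± 0.36; with the block 0.42 ± 0.13, edgeR adjusted p = 0.121). UTP9 had 173, 158 and 227 CPM in 2SA sucrose, against 133, 112 and 192 CPM in WT sucrose (0.35 ± 0.37; with the block 0.37 ± 0.09, edgeR adjusted p = 0.0689). In both genes 2SA was higher in every pair and neither was called.

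RPF2, which helps to place the 5S RNA in the large subunit, had 185, 154 and 313 CPM in 2SA sucrose, against 149, 98.3 and 262 CPM in WT sucrose (0.36 ± 0.39). NOP9, an RNA-binding factor of the small subunit, had 146, 105 and 214 CPM in 2SA sucrose, against 122, 75.0 and 171 CPM in WT sucrose (0.33 ± 0.34). With the block NOP9 had the lowest adjusted p of the 58, 0.063 by edgeR at 0.35 ± 0.08, and its adjusted p ran from 0.063 to 1.0 over the fits tried. RRP5 had 747, 427 and 1129 CPM in 2SA sucrose, against 613, 268 and 956 CPM in WT sucrose (0.33 ± 0.44). In these 3 genes 2SA was higher within each pair.

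UTP15 was the 1 gene whose groups did not overlap, with 80.1, 76.6 and 86.6 CPM in 2SA sucrose, against 59.8, 63.8 and 76.4 CPM in WT sucrose. Upward separation was found in 2.88% of all features and downward in 3.39%, which holds 0 of the 58. Its log2 fold change was 0.28 ± 0.23 (edgeR adjusted p = 1.0). Utp15 is a UtpA protein.

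The 5 lowest values were near 0: RRP45 (−0.00 ± 0.13), RRP42 (0.03 ± 0.11) and RRP43 (0.03 ± 0.15) of the exosome ring, NOP2, a methyltransferase of the large subunit RNA (0.04 ± 0.38), and RPF1, a large subunit assembly factor (0.05 ± 0.31). RRP45 had 108, 106 and 115 CPM in 2SA sucrose, against 105, 119 and 105 CPM in WT sucrose. Without a block, the standard error of RRP45 was 0.13, against 0.23 (UTP15) to 0.40 (UTP5) for UtpA genes. With the block for each pair it was 0.086, against 0.087 (UTP5) to 0.13 (UTP4) for UtpA genes. The block standard error of NOP9, given above, was no larger than that of RRP45. The closer bound on RRP45 than on these processome genes was thus clear only in the fit without a block. The snoRNP core genes were NOP1 at 0.11 ± 0.39, NOP56 at 0.17 ± 0.41, NOP58 at 0.20 ± 0.42 and NOP10 at 0.10 ± 0.21, with edgeR adjusted p of 0.998 or more.

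In glucose, 2SA against WT gave values on both sides of 0. EdgeR called 0.0822% of all features and 0 of the 58, and none had an unadjusted p under 0.05, against 2.81% of all features. DESeq2 called 0.510% of all features and 0 of the 58. The median was 0.03, with a range of −0.19 to 0.33 and 34 above 0, against 0.01 over all features. With the block the median was 0.05, 0 of the 58 were called, against 0.477% of all features, and 4 had an unadjusted p under 0.05 (RRP4, UTP6, UTP9 and UTP30), against 10.5%. No gene had separate groups, against 3.60% of all features upward and 3.75% downward. Within pairs 2SA was higher in all 3 for 7 genes (12.1%, against 18.4% of all features) and lower in all 3 for 2, NOP58 and RRP8 (3.45%, against 15.6%). With the libraries numbered 2 left out, none had an unadjusted p under 0.05 by edgeR without the block (2.10% of all features) and 3 with it (5.17%, against 7.76%). In the pairs numbered 1 and 3, 2SA was higher in both for 21 genes (36.2%, against 29.5%) and lower in both for 4 (6.90%, against 25.4%).

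The 3 glucose pairs differed. The median of 2SA minus WT over the 58 was 0.236 in the pair numbered 1, with 52 genes above 0, and −0.024 and −0.031 in the pairs numbered 2 and 3, with 24 and 23 above 0. The median was thus above 0 in 1 of the 3 pairs. RRP4, an RNA-binding cap protein of the exosome, had the highest value, with 49.4, 67.1 and 51.2 CPM in 2SA glucose, against 29.0, 53.1 and 51.5 CPM in WT glucose (0.33 ± 0.23, edgeR adjusted p = 1.0). The WT library numbered 1 was the lowest of the 6, and the groups overlap.

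UTP30 followed, with 48.8, 70.0 and 52.2 CPM in 2SA glucose, against 32.3, 59.0 and 50.5 CPM in WT glucose (0.27 ± 0.26). UTP6 (0.22 ± 0.32), UTP9 (0.22 ± 0.37) and UTP15 (0.16 ± 0.23) were next. The lowest was RRP14, a factor of both subunits, with 575, 1048 and 838 CPM in 2SA glucose, against 523, 1459 and 822 CPM in WT glucose (−0.19 ± 0.34), and the groups overlap. NOP58 had 516, 651 and 633 CPM in 2SA glucose, against 543, 783 and 711 CPM in WT glucose (−0.18 ± 0.42), and was lower in 2SA in each pair. NOP7 (−0.16 ± 0.44), NOP6 (−0.16 ± 0.28) and RRP8 (−0.16 ± 0.32) completed the 5 lowest, and edgeR gave all of them an adjusted p of 1.0.

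Whether the difference between 2SA and WT itself differed between sucrose and glucose was tested as an interaction. EdgeR and DESeq2 both called 0% of all features, and 0.164% had an unadjusted p under 0.05 by edgeR, none of them among the 58. The median over the 58 was 0.15, with 53 above 0, against −0.01 over all features, and the median standard error was 0.47. The highest values were those of UTP20 (0.43 ± 0.69), NOP7 (0.39 ± 0.63), RRP12, an export factor of both subunits (0.39 ± 0.66), NOP58 (0.38 ± 0.59) and RRP5 (0.37 ± 0.62). The lowest were those of RRP45 (−0.11 ± 0.19), RRP4 (−0.04 ± 0.32), RRP43 (−0.04 ± 0.21), RRP42 (−0.01 ± 0.16) and RRP7 (−0.01 ± 0.26). All edgeR adjusted p were 1.0, and the median was 0.07 without the libraries numbered 2, with 37 above 0. With the block within carbon source the median was 0.15, 0% of all features were called, and 10 of the 58 (17.2%), all above 0, had an unadjusted p under 0.05, against 4.96% of all features. Among them were UTP20 (0.46 ± 0.13), NOP7 (0.44 ± 0.16) and RRP12 (0.42 ± 0.15), each with an edgeR adjusted p of 0.974. Without the libraries numbered 2 the block gave 1 of the 58 (1.72%), against 1.67% of all features, and a median of 0.06.

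The other genes of the ribosome assembly pathway were not called either. In sucrose, 0 of 43 other small subunit genes, 0 of 55 other large subunit genes, 0 of 9 other H/ACA and exosome genes and 0 of 14 RNA polymerase I genes were called in 2SA against WT. Their median log2 fold changes were 0.20, 0.22, 0.17 and 0.25, with 39, 55, 9 and 13 above 0, and without the libraries numbered 2 they were 0.14, 0.12, 0.12 and 0.21. In sucrose against glucose in WT the medians were −0.21, −0.38, −0.42 and −0.20, again with 0 called, and without the libraries numbered 2 they were 0.14, 0.12, −0.09 and 0.04. All of these lists but that of H/ACA and exosome genes thus changed sign. The stress genes had a median of −0.61 in 2SA against WT in sucrose, and of −0.39 without the libraries numbered 2. Of these 16, 0 were above 0 with all libraries and 0 were called, against 0.0657% of all features. With the block for each pair edgeR called 3 of the 16 lower, and 1.84% of all features. Without the libraries numbered 2 the block gave 0 calls among them, against 0.246% of all features. The ribosomal protein genes had a median of 0.25, and of 0.20 without the libraries numbered 2.

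The regulators named above were not called in any comparison. DOT6 had 219, 297 and 140.3 CPM in 2SA sucrose, 206, 378 and 166 in WT sucrose, 279.6, 196 and 188 in 2SA glucose and 266, 196 and 197 in WT glucose. TOD6, its paralogue, had 229.5, 163 and 172 CPM in 2SA sucrose, 155, 119 and 185 in WT sucrose, 107, 249 and 132 in 2SA glucose and 77.6, 245 and 133 in WT glucose. In glucose TOD6 was highest in the libraries numbered 2, as most of the 58 genes were, while DOT6 was highest in the libraries numbered 1. In sucrose DOT6 was highest in the libraries numbered 2. In 2SA against WT in sucrose the log2 fold changes were −0.19 ± 0.34 for DOT6, 0.30 ± 0.40 for TOD6, −0.19 ± 0.25 for STB3, −0.18 ± 0.24 for SFP1 (an activator of these genes), 0.02 ± 0.18 for SCH9 (a kinase that signals nutrients to them) and −0.02 ± 0.18 for RPD3.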

How the data were processed

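The authors deposited 1 table of raw read counts per gene with 7127 features and 12 libraries, all of which were mapped to samples by their titles. Reads were aligned with Bowtie 0.12.2 to sacCer3, per the submitters' processing notes. Nothing used here names the program that counted reads, its strand setting or what it did with reads that match several places. Of the 58 genes 8 overlap another feature (NOP58 on the same strand), and none has a near copy elsewhere (80% identity over 100 bases, BLAST+ 2.17.0). Starts and ends of all 58 are the same in the R64 annotation.

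The main test was edgeR 4.0.16 (quasi-likelihood, R 4.3.3), fitted jointly to the 12 libraries with a coefficient for each group, TMM scaling (factors 0.922 to 1.11) and filterByExpr (minimum count 10, 6085 features kept). Adjusted p are Benjamini-Hochberg over all features tested. A gene was called at an adjusted p under 0.05 with a fold change over 1.5. Values after ± are standard errors for log2 fold changes and SD for levels. The edgeR standard errors were derived as the size of the log2 fold change divided by the square root of its F statistic. CPM are TMM-scaled unless stated otherwise, and the spread uses log2 CPM with a prior count of 2. DESeq2 1.42.0 was an alternative. Errors and p of the main fit rest on 3 libraries a group. The fits without the libraries numbered 2 hold 8 libraries, 2 a group. They leave 4 residual degrees of freedom, and 2 with the block within carbon source, against 8 and 4 with all libraries. Counts of genes that pass are thus not on the same footing in these fits. No 2 replicates of a group agreed within sampling noise (chi-square per degree of freedom 89.8 or more in the 12 pairs compared).

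Same-numbered libraries were treated as pairs where all their deviations from the group means correlated above 0.1. Over the 6085 features, r was 0.603, 0.847 and 0.799 between 2SA and WT in sucrose and 0.654, 0.610 and 0.545 in glucose, so the numbers pair 2SA with WT within a carbon source. Between sucrose and glucose r was 0.250, −0.195 and 0.335 in 2SA and 0.359, −0.095 and 0.479 in WT, so they do not pair there. The additive block gives each number 1 effect in both carbon sources, which the values of number 2 do not bear out.

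The genes named are the 5 highest and 5 lowest of the 58 in each comparison, those highest and lowest in level, any called under an alternative, and NOP1, NOP56, NOP58, NOP10, RRP5, UTP22 and RRP6, with DOT6, TOD6, STB3, SFP1, SCH9 and RPD3. RRP46 is named for its promoter. The members and the gene lists were chosen with earlier results of these data known. The edgeR steps were tested on simulated data.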

Additional observations from a re-analysis of the deposited data

Results flagged for a closer look

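RRP8, which encodes a methyltransferase of the large subunit RNA, was higher in 2SA than in WT in all 3 sucrose pairs (2SA minus WT of 0.07, 0.36 and 0.06 in log2 CPM, by number) and lower in 2SA in all 3 glucose pairs (−0.04, −0.26 and −0.11). RRP8 had 303, 215 and 339 CPM in 2SA sucrose, against 289, 168 and 325 CPM in WT sucrose, and 272, 444 and 305 CPM in 2SA glucose, against 279, 534 and 329 CPM in WT glucose. The interaction was 0.30 ± 0.45 on the log2 scale (edgeR adjusted p = 1.0), and 0.30 ± 0.13 with the block within carbon source (edgeR adjusted p = 0.974). No other of the 58 genes had opposite signs in all pairs of the 2 carbon sources. The share of all features with this pattern was not computed, so it is given as a description only.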

How the results depend on the processing

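Calls of nucleolar factors depended on the tool, the block or 1 library in sucrose against glucose in WT alone, where 2 were called lower with DESeq2, 1 with the additive replicate block and 0 to 2 with 1 library left out; the other fits run called 0 there, and all fits run called 0 in the other comparisons. Over all features, the calls in 2SA against WT in sucrose numbered 46 with DESeq2, 10 with the additive replicate block, 112 with the replicate block within carbon source, 15 with that block and without the libraries numbered 2, 0 without them and no block, 0 with the 2 groups alone, and 1 to 4 with 1 library left out, against 4 reported. In glucose they numbered 31, 9, 29, 10, 1, 1 and 1 to 6 under the same settings, against 5 reported. Sucrose against glucose gave, in 2SA and in WT, 199 and 336 calls with library totals only, 347 and 539 with DESeq2, 347 and 636 with the additive block, 0 and 0 without the libraries numbered 2, 5 and 10 with the 2 groups alone, and 3 to 157 and 12 to 426 with 1 library left out, against 115 and 209 reported.

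The median of the 58 in sucrose against glucose was −0.02 in 2SA and −0.15 in WT with library totals only, where the median over all features was 0.15 and 0.18. With 1 library left out it ran from −0.32 to 0.03 in 2SA, above 0 without 2SA glucose replicate 2 (0.03) and without 2SA sucrose replicate 2 (0.01), and from −0.57 to −0.06 in WT. In 2SA against WT it ran from −0.01 to 0.43 in sucrose and from −0.18 to 0.26 in glucose, below 0 there without WT glucose replicate 1 (−0.18) or 2SA glucose replicate 2 (−0.14), and the interaction median from −0.06 to 0.42. Of 79 log2 fold changes computed for named genes, not all of them printed above, 42 took the other sign under some setting. Their values lay within 1 standard error of 0 in both fits, with exceptions in sucrose against glucose without the libraries numbered 2. These were UTP22 (0.16 in 2SA and 0.038 in WT) and RRP6 (0.19 in 2SA). The cause was not tested. Median standard errors of 0.33 in the fit without a block limit what 3 libraries a group can show. With the block within carbon source, standard errors of 2SA against WT were smaller for genes such as UTP21 in sucrose (0.11 against 0.38).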
